A study of Arabidopsis thaliana with 12 samples.

Results

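The genes described here encode proteins of the large (60S) subunit of the cytosolic ribosome in Arabidopsis thaliana. They were given as a list of 60 loci, and a gene was kept where the array carried a probe set annotated to it alone. Of the 60 loci, 39 had such a probe set, 1 each. They are 39 of the 13286 genes with a probe set of their own here, and every test ran over the 22746 probe sets that are not controls. No filter on dim signals was applied, so all 39 entered every comparison. The other 21 loci were not analysed here, which left 19 of 27 protein families with a measured member and 15 families with at least 2. No member of L3, L5, L8, L10, L11, L23a, L24 or L27a was measured.

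Gene expression was profiled on 12 Affymetrix ATH1 arrays from stem fragments 0.5 cm long. The arrays form 4 groups of 3: wox4-1 at the stem base, wild type (Columbia, WT) at the base, wox4-1 in the first internode and WT in the first internode. The labels call the arrays of a group biological replicates, and 13 to 17 stems were pooled for each, from plants that were 49 to 58 days old and 15 to 20 cm tall, with a first internode of 3.5 cm or more, after 3 weeks of short days (8 h of light) and then long days (16 h of light). The internode fragment came from 1.5 to 2.0 cm above the top rosette leaf. WOX4 is a homeobox gene known for promoting the activity of the cambium, the stem cell layer that thickens the stem and is established first at its base, and wox4-1 is a mutant of it. No probe set was named for WOX4 here, so the genotype labels could not be checked on the mutated gene.

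The cytosolic ribosome translates the messenger RNAs of nuclear genes, and growing plant cells make its proteins in large and balanced amounts. In Arabidopsis each ribosomal protein is encoded by a small family of paralogs, several of which are transcribed in the same tissue. Mutants in single large subunit genes are known for pointed leaves, altered leaf polarity and defects in auxin response.

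Signals are on the log2 scale of the deposited values, where a difference of 1 is a doubling, and the level of one probe set is not compared with that of another. The members were bright: their means over 12 arrays ran from 8.25 to 12.11 with a median of 10.77, against a median of 5.65 for all probe sets, and 36 of 39 lay above the 90th percentile. Array medians ran from 5.57 to 5.72, and arrays of one group correlated at 0.992 to 0.997 across probe sets. 1 array stood apart in its RNA controls: wox4-1 internode replicate 2 had a 3′ minus 5′ difference of 2.26 for actin, where the rest lay between 1.22 and 1.51, and of 0.52 for GAPDH, where the rest reached 0.09 at most. Of the marker lists, no vascular or epidermal gene was measured by name, so the stem tissues could not be checked on those markers.

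The 39 genes moved together across the arrays. The mean at the WT base was the highest of the 4 groups for 38 genes, and the mean in the wox4-1 internode was the lowest for 35. The order WT base, wox4-1 base, WT internode, wox4-1 internode, from high to low, held for 33 genes. The share of all probe sets with these ranks was not counted. The genes share arrays and also moved together within groups, so these counts describe the 12 arrays only. With each gene set to its mean over the 12 arrays, the median gene stood at 0.15, 0.04 and -0.01 on the 3 wox4-1 base arrays, against 0.17, 0.24 and 0.24 on the WT base arrays. It stood at -0.25, -0.20 and -0.14 on the wox4-1 internode arrays, against -0.06, -0.05 and -0.14 on the WT internode arrays. The base arrays did not overlap the internode arrays on this measure, and WT internode replicate 3 lay as low as wox4-1 internode replicate 3. In these bulk samples a smaller number of cells with a high ribosomal protein level and less RNA per cell cannot be told apart.

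**Figure D1:**
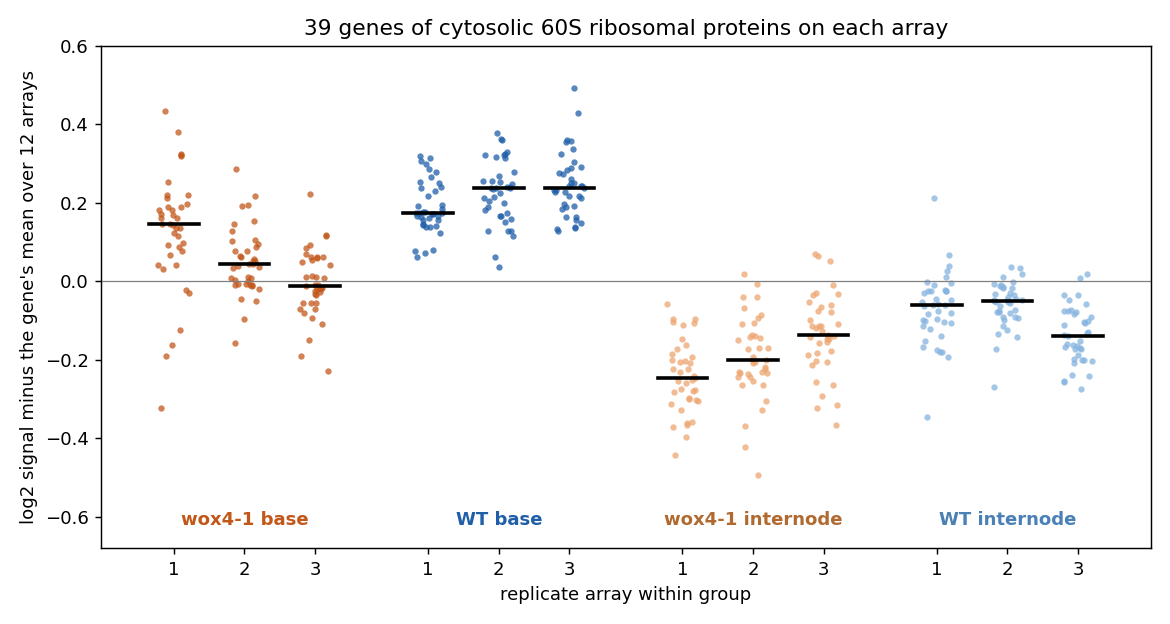
Each point is 1 of 39 genes on 1 array, as log2 signal minus that gene's mean over 12 arrays (y axis), by replicate array within the 4 groups (x axis), with a black bar at the median gene. The bars of the WT base arrays (0.17 to 0.24) are the highest and those of wox4-1 internode replicates 1 and 2 (-0.25 and -0.20) the lowest.

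Over the 741 pairs of members, the median correlation across the 12 arrays was 0.848, with a range of 0.19 to 0.989, and all 741 were positive. With each group's mean removed, the median was 0.463 and 582 pairs were positive. These points share arrays and their normalization, so the correlations describe the 12 arrays only. The genes least like the rest were AT3G16780 (L19) and AT2G20450 (L14), with median correlations to the other members of 0.474 and 0.533. AT5G02870 (L4) and AT1G27400 (L17) followed with 0.552 and 0.613.

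Transcripts of many large subunit proteins were more abundant at the stem base than in the internode above it. In wox4-1, 20 of the 39 genes rose at the base and none fell, on a background of 11.4% of all probe sets higher and 13% lower. In WT, 31 genes rose and none fell, on a background of 9.6% higher and 10.1% lower. With a replicate block within WT, which compares WT arrays of the same number and was chosen after the data were seen, 25 genes rose. That fit called 2119 of the 22746 probe sets higher and 2273 lower. A call is an adjusted p under 0.05 in limma, with Benjamini-Hochberg adjustment over 22746 probe sets. The called changes were modest, at 17.6% to 43.7% in wox4-1 and 16.3% to 41.3% in WT. The median log2 change of the 39 genes was 0.23 in wox4-1 and 0.31 in WT, against medians over all probe sets of 0.04 in wox4-1 and 0.01 in WT. Among the 3522 probe sets at least as bright as the dimmest member, 18.6% were called higher in wox4-1 and 16.7% in WT.

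Of the 20 genes called in wox4-1, 19 were also called in WT (95.0% of the wox4-1 calls and 61.3% of the WT calls), and 7 genes were called in neither. In wox4-1, the 3 base arrays lay above all 3 internode arrays for 27 genes, where this held for 21.1% of all probe sets. In WT it held for 38 genes, where it held for 20.4% of all probe sets. The count of wox4-1 calls dropped to 12 without internode replicate 1 and to 12 without internode replicate 2, and to 12 where only the 6 wox4-1 arrays were fitted. The count of WT calls dropped to 17 without WT base replicate 2, 20 without WT internode replicate 1, 15 without WT internode replicate 3 and 10 without both WT replicate 2 arrays. Of the called genes, 11 of 20 in wox4-1 and 13 of 31 in WT passed whichever single array was left out. No member was called lower in any of these fits, and 1 of the removed arrays, wox4-1 internode replicate 2, is the one that stood apart above.

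**Figure D2:**
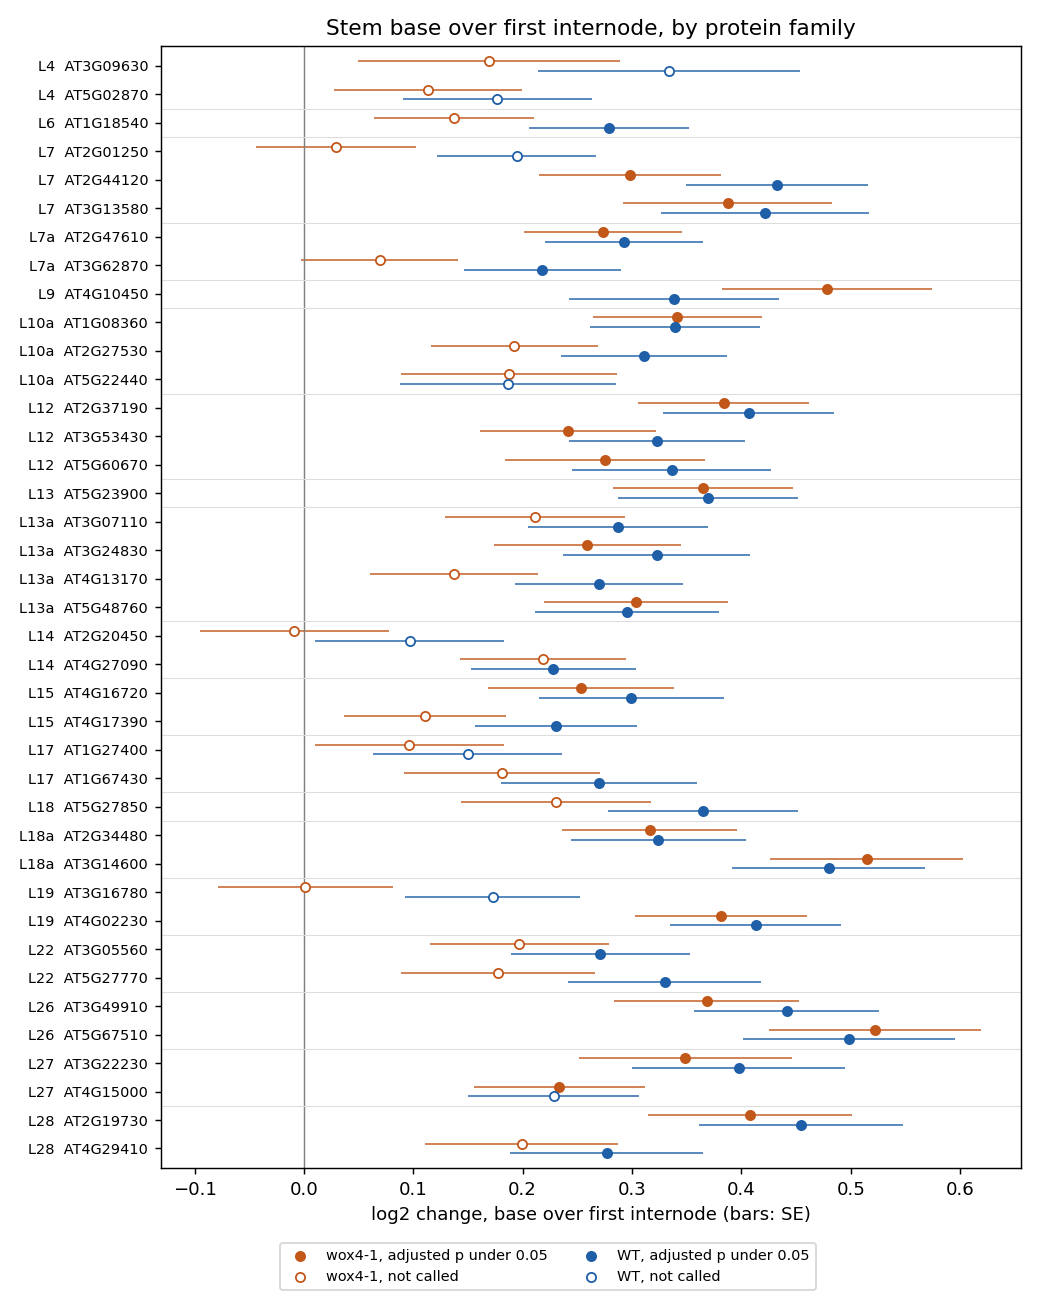
Log2 change, base over internode (x axis, bars are the standard error of limma), for the 39 genes grouped by family (y axis), with wox4-1 above WT in each row. Filled points passed an adjusted p of 0.05, as 20 did in wox4-1 and 31 in WT, and all but 1 point lie to the right of 0.

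L26 sits where the growing chain leaves the ribosome. Its gene AT5G67510 had 9.91, 9.63 and 9.70 at the wox4-1 base, against 9.24, 9.11 and 9.33 in the wox4-1 internode. In WT it had 9.67, 9.65 and 9.84 at the base, against 9.13, 9.21 and 9.32 in the internode. All 6 base arrays lay above all 6 internode arrays. The change was 0.52 ± 0.10 (SE, n = 3 each) in wox4-1 and 0.50 ± 0.10 in WT, with limma adjusted p of 0.00158 and 0.00260, the largest member change in both genotypes. The other L26 gene, AT3G49910, had 12.31, 12.16 and 12.13 at the wox4-1 base, against 11.74, 11.89 and 11.86 in the wox4-1 internode. It had 12.40, 12.43 and 12.47 at the WT base, against 12.05, 12.07 and 11.85 in the WT internode. It also rose in both genotypes, by 0.37 in wox4-1 and 0.44 in WT (limma adjusted p = 0.00628 and 0.00231).

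L4 and L17 reach into the wall of the tunnel. The L4 genes are known from Arabidopsis mutants with defects in auxin response and vacuolar trafficking. AT3G09630 had 10.48, 11.09 and 10.81 at the wox4-1 base, against 10.60, 10.59 and 10.67 in the wox4-1 internode. It had 11.04, 11.08 and 11.06 at the WT base, against 10.80, 10.75 and 10.64 in the WT internode. The wox4-1 groups overlapped, because base replicate 1 lay below every internode array, while the WT groups did not. AT5G02870 had 10.73, 11.02 and 11.03 at the wox4-1 base, against 10.76, 10.88 and 10.81 in the wox4-1 internode. It had 11.06, 11.05 and 11.05 at the WT base, against 10.89, 10.87 and 10.87 in the WT internode. Neither L4 gene was called in either genotype, and the limma adjusted p of their changes ran from 0.0681 to 0.371. Of the L17 genes, AT1G67430 did not pass in wox4-1 (0.18, limma adjusted p = 0.161) and rose in WT (0.27, limma adjusted p = 0.0494, but 0.0747 with the replicate block within WT). AT1G27400 passed in neither genotype, with changes of 0.10 in wox4-1 and 0.15 in WT.

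L9 lies near the factor-binding region, and its gene AT4G10450 had 9.15, 8.95 and 8.89 at the wox4-1 base, against 8.59, 8.33 and 8.63 in the wox4-1 internode. It had 8.99, 9.07 and 9.11 at the WT base, against 8.65, 8.73 and 8.76 in the WT internode. The base arrays did not overlap the internode arrays in either genotype, and the gene rose by 0.48 in wox4-1 and 0.34 in WT (limma adjusted p = 0.00278 and 0.0242). The WT call was lost without WT base replicate 2 or 3 or WT internode replicate 1 or 2. L12 forms the base of the stalk that recruits elongation factors, and its 3 genes AT2G37190, AT3G53430 and AT5G60670 rose in both genotypes, by 0.24 to 0.38 in wox4-1 and by 0.32 to 0.41 in WT.

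L10a forms the mobile stalk next to the site where transfer RNA leaves. AT2G27530, named PGY1 for the pointed leaves of its mutant, had 10.84, 10.84 and 10.76 at the wox4-1 base, against 10.57, 10.67 and 10.63 in the wox4-1 internode. It had 10.95, 10.98 and 11.02 at the WT base, against 10.67, 10.78 and 10.57 in the WT internode. The base lay above the internode on every array of each genotype, and the change of 0.31 passed in WT (limma adjusted p = 0.0106), while the change of 0.19 did not pass in wox4-1 (adjusted p = 0.0824). Without WT internode replicate 3 the WT adjusted p was 0.0543. AT1G08360 rose by 0.34 in both genotypes, and AT5G22440 passed in neither, with 0.19 in both.

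L19 takes part in a bridge to the small subunit, and its genes AT4G02230 and AT3G16780 differed. AT4G02230 rose by 0.38 in wox4-1 and 0.41 in WT (limma adjusted p = 0.00320 and 0.00221). AT3G16780 had 8.32, 8.42 and 8.50 at the wox4-1 base, against 8.35, 8.40 and 8.49 in the wox4-1 internode, groups that overlapped almost fully. It had 8.50, 8.56 and 8.61 at the WT base, against 8.39, 8.30 and 8.46 in the WT internode, a difference of 0.17 that did not pass (limma adjusted p = 0.163).

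Of the remaining families, L18a and L28 held the largest changes. AT3G14600 (L18a) had 10.45, 10.41 and 10.25 at the wox4-1 base, against 9.83, 9.85 and 9.90 in the wox4-1 internode. It had 10.59, 10.63 and 10.76 at the WT base, against 10.24, 10.27 and 10.03 in the WT internode. It rose by 0.51 ± 0.09 (SE, n = 3 each) in wox4-1 and by 0.48 ± 0.09 in WT, and the averages of the groups ran from 9.86 ± 0.04 in the wox4-1 internode to 10.66 ± 0.09 at the WT base (SD, n = 3). AT2G19730 (L28), known from a mutant that enhances defects in leaf polarity, had 11.60, 11.39 and 11.33 at the wox4-1 base, against 10.93, 11.05 and 11.13 in the wox4-1 internode. It had 11.46, 11.61 and 11.61 at the WT base, against 11.11, 11.19 and 11.01 in the WT internode. It rose by 0.41 in wox4-1 and 0.45 in WT (limma adjusted p = 0.00624 and 0.00374).

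The families with every measured member called were 6 in wox4-1 and 12 in WT, and those with at least 1 called member were 13 in wox4-1 and 18 in WT. The 1 family with no call in either genotype was L4. Members outside L4 with no call in either genotype were AT2G01250 (L7), AT5G22440 (L10a), AT2G20450 (L14), AT1G27400 (L17) and AT3G16780 (L19). AT2G20450 was the dimmest member and had 8.29, 8.09 and 8.22 at the wox4-1 base, against 8.04, 8.27 and 8.32 in the wox4-1 internode, with a change of -0.01. It had 8.32, 8.31 and 8.38 at the WT base, against 8.25, 8.27 and 8.21 in the WT internode, with a change of 0.10. Averaged over genotypes, 33 genes rose at the base, on a background of 17.1% of all probe sets higher and 17.1% lower. All 6 base arrays lay above all 6 internode arrays for 17 genes, where this held for 7.46% of all probe sets. Without wox4-1 internode replicate 2, 31 genes rose on average.

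The second comparison asked how wox4-1 stems differed from WT stems. At the base, 38 of the 39 genes had a lower mean in wox4-1, with a median log2 change of -0.14 (9.3% lower), and no gene passed the test. Of all 22746 probe sets, 10443 had a lower mean in wox4-1. Over all probe sets the median was 0.02, with 2.52% called higher and 2.51% lower. With each array centred on its own median, the members' median was -0.078 and that of all probe sets 0.08, with 998 probe sets higher and 380 lower, against 574 higher and 572 lower as deposited. The smallest limma adjusted p among the members was 0.0537. The 3 wox4-1 arrays lay below all 3 WT arrays for 21 genes, where this held for 11.6% of all probe sets. With limma's variance trend 3 genes were called lower in wox4-1, with the robust option added 6, with cyclic loess between arrays 3 and with dim probe sets left out 2, and leaving out 1 array gave 0 to 3. Over all probe sets, the trend called 607 higher and 581 lower, and the robust option 663 and 636. Cyclic loess called 591 and 502, and the fit without dim probe sets 481 and 562, out of fewer tested. The 3 with an array left out came without wox4-1 base replicate 1, where 413 probe sets were called higher and 468 lower. The members were not tested against these counts.

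In the internode, 36 genes had a lower mean in wox4-1, with a median of -0.08, against 0.0046 over all probe sets. A lower mean held for 11010 of all 22746 probe sets. No member passed, on a background of 0.11% of all probe sets higher and 0.132% lower. The smallest limma adjusted p was 0.209. The wox4-1 arrays lay below the WT arrays for 10 genes, where this held for 6.79% of all probe sets. Without wox4-1 internode replicate 2, which stood apart in its RNA controls, the median was -0.09 and no member passed. The base comparison shares the WT base and wox4-1 base arrays with the position comparisons above, and the internode comparison shares their internode arrays.

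Averaged over the base and the internode, 6 genes fell in wox4-1 and none rose, on a background of 2.79% of all probe sets lower and 2.89% higher. The 6 were AT3G14600 (L18a), AT5G22440 (L10a), AT3G13580 (L7), AT2G37190 (L12), AT5G27770 (L22) and AT4G27090 (L14), with log2 changes between -0.30 and -0.22 and limma adjusted p between 0.0124 and 0.0360. This average takes the base and internode arrays of a genotype as independent. The block within WT was not fitted for it, so these p-values may be too small if same-numbered WT arrays are paired. The median over the 39 genes was -0.11, against 0.01 over all probe sets. Over both positions together, the 6 wox4-1 arrays overlapped the 6 WT arrays for all 39 genes, where 0.558% of all probe sets lay wholly lower in wox4-1. The count of 6 rested on few arrays. It was 10 without wox4-1 base replicate 1, 3 without wox4-1 base replicate 3 or WT base replicate 2, 2 without WT base replicate 3, WT internode replicate 1 or WT internode replicate 2, and 1 without wox4-1 internode replicate 1. It stayed at 6 without wox4-1 internode replicate 2, and AT3G14600 passed without any single array. With each array centred on its own median the count was 3, with AT5G22440, AT4G27090 and AT5G27770 over the threshold (limma adjusted p = 0.0565 to 0.0716). It was 0 without both WT replicate 2 arrays.

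AT3G14600, whose values stand above, lay lower on all 3 wox4-1 arrays than on all 3 WT arrays at both positions. Its change was -0.29 at the base and -0.32 in the internode (limma adjusted p = 0.0800 and 0.209), and -0.30 ± 0.06 (SE) on average. AT2G37190, an L12 gene, had 11.33, 11.19 and 11.14 at the wox4-1 base, against 11.47, 11.47 and 11.51 at the WT base. It had 10.79, 10.83 and 10.89 in the wox4-1 internode, against 11.11, 11.14 and 10.98 in the WT internode. The genotypes did not overlap at either position, and the average change was -0.25 ± 0.06 (adjusted p = 0.0174 in limma). In limma fits with 1 array removed, the adjusted p was 0.0516 without wox4-1 internode replicate 1 and 0.0525 without WT internode replicate 2, and it passed in the other 10.

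AT5G22440 (L10a) had 9.38, 9.16 and 9.07 at the wox4-1 base, against 9.49, 9.44 and 9.56 at the WT base. It had 8.93, 8.99 and 9.12 in the wox4-1 internode, against 9.47, 9.24 and 9.22 in the WT internode, so the genotypes did not overlap at either position. It was not called for position in either genotype. AT3G13580 (L7) had 9.94, 10.30 and 10.22 at the wox4-1 base, against 10.39, 10.47 and 10.54 at the WT base. It had 9.71, 9.80 and 9.79 in the wox4-1 internode, against 10.10, 10.08 and 9.95 in the WT internode, and it rose at the base in both genotypes as well (0.39 in wox4-1 and 0.42 in WT). AT5G27770 (L22), with 11.24, 11.19 and 10.93 at the wox4-1 base, against 11.41, 11.48 and 11.44 at the WT base, gave the smallest adjusted p of the base comparison (-0.32, limma adjusted p = 0.0537). The calls of AT5G22440 and AT3G13580 were each lost in 5 of the 12 fits that left out 1 array, that of AT4G27090 in 6 and that of AT5G27770 in 8, with limma adjusted p up to 0.0920. All 4 were lost without WT base replicate 3, without wox4-1 internode replicate 1 and without WT internode replicate 1.

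**Figure D3:**
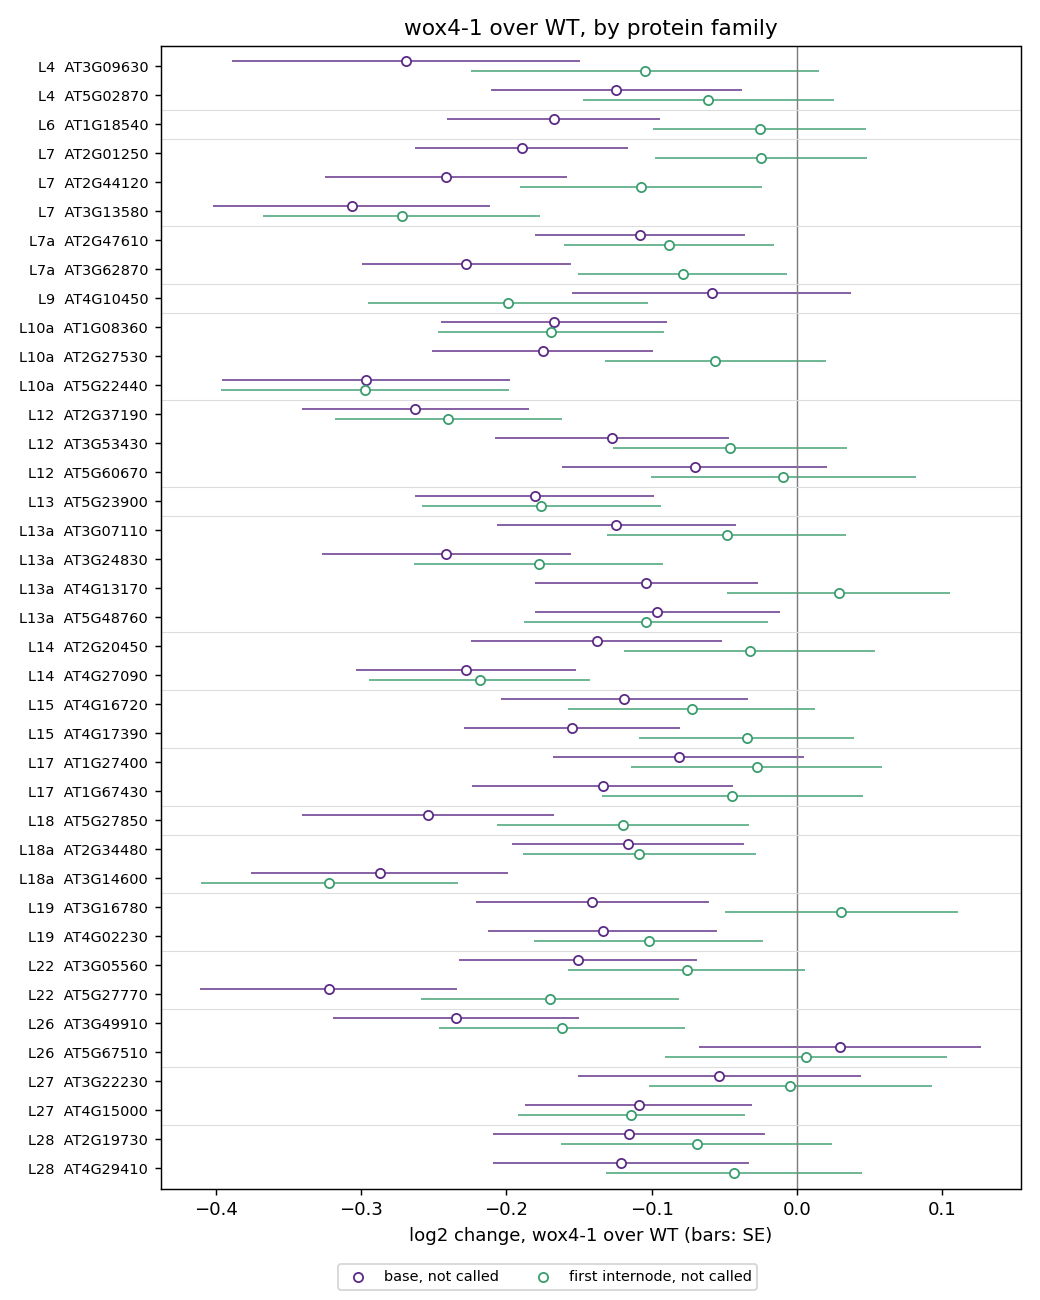
Log2 change, wox4-1 over WT (x axis, bars are the standard error of limma), for the 39 genes grouped by family (y axis), with the base above the internode in each row. No point is filled, since no gene passed an adjusted p of 0.05 at either position, and 38 points at the base and 36 in the internode lie to the left of 0.

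The difference between the position changes of wox4-1 and WT was tested directly, and no member passed. The median was -0.06, with 32 of 39 genes at a smaller change in wox4-1, against 0.01 over all probe sets, with 0.0044% called higher and 0% lower. A negative difference held for 10908 of all 22746 probe sets. The members' median was -0.0043 with each array centred on its own median. It ran from -0.12 without wox4-1 base replicate 1 to -0.023 without wox4-1 internode replicate 3. Without wox4-1 internode replicate 2 it was -0.06, with no call. No member had an unadjusted p under 0.05, and the smallest limma adjusted p was 0.699, for AT2G01250 (L7; -0.17). This gene had 11.24, 11.18 and 11.05 at the wox4-1 base, against 11.09, 11.13 and 11.16 in the wox4-1 internode. It had 11.38, 11.32 and 11.33 at the WT base, against 11.17, 11.16 and 11.12 in the WT internode. Thus the counts of 20 and 31 do not show that the position change differed between the genotypes. In simulated data this test recovered 0% of log2 shifts of 0.5, so the lack of a call does not show equal changes either.

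A 25S ribosomal RNA control probe set on the array moved in the same order as the genes. It gave 8.93, 9.18 and 9.29 at the wox4-1 base, against 9.90, 9.82 and 9.81 at the WT base. It gave 8.41, 8.11 and 8.07 in the wox4-1 internode, against 9.09, 8.85 and 8.71 in the WT internode. The base lay 0.95 above the internode and wox4-1 lay 0.70 below WT, each with a two-sided exact permutation p of 0.005, the smallest that 400 arrangements can give. The genotype p takes base and internode arrays of the same number as unrelated and may be too small if they are paired. The part of the RNA that this control reports in the results above was not tested.

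Paralogs of a family were then compared by how the log2 difference between their probe sets moved, which needs no comparison of levels. There were 26 pairs in 15 families. For position, the change differed between the paralogs at an adjusted p under 0.05 in 8 pairs of 7 families, and 12 pairs had an unadjusted p under 0.05 (two-sided exact permutation within genotype, adjusted over the 26 pairs). The median size of the difference was 0.10 and the largest was 0.31. With WT labels swapped only within replicate numbers, a replicate block added after the data were seen that leaves 160 arrangements and a smallest p of 0.0125, 8 pairs passed, 7 of them as before. The L7a pair missed the threshold there and the L15 pair AT4G16720 and AT4G17390 passed (exact permutation adjusted p = 0.0650 and 0.0406).

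The largest difference was in L19. AT3G16780 minus AT4G02230 was -2.65, -2.60 and -2.37 at the wox4-1 base, against -2.22, -2.25 and -2.01 in the wox4-1 internode. It was -2.63, -2.52 and -2.45 at the WT base, against -2.32, -2.45 and -2.11 in the WT internode. Its position change was 0.38 smaller for AT3G16780 in wox4-1 and 0.24 smaller in WT, a mean of -0.31 (exact permutation p = 0.005, adjusted p = 0.0217, with 0.0557 without wox4-1 internode replicate 3).

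In L7, the position change of AT2G01250 was smaller than that of both paralogs, with differences of -0.25 from AT2G44120 and -0.29 from AT3G13580 (exact permutation, adjusted p = 0.0217 each). The difference AT2G01250 minus AT2G44120 was 0.43, 0.48 and 0.44 at the wox4-1 base, against 0.76, 0.74 and 0.66 in the wox4-1 internode. It was 0.49, 0.36 and 0.35 at the WT base, against 0.63, 0.57 and 0.72 in the WT internode, with no overlap in either genotype. The pair with AT3G13580 missed the threshold without any 1 of the 3 wox4-1 internode arrays or WT internode replicate 3 (exact permutation, adjusted p = 0.0557 to 0.0812).

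In L28 the position change of AT2G19730 minus that of AT4G29410 was 0.19, in L14 that of AT2G20450 minus that of AT4G27090 was -0.18, and in L18a that of AT2G34480 minus that of AT3G14600 was -0.18. Each had an exact permutation adjusted p of 0.0217 and passed without any single array. The L28 difference was 1.88, 1.85 and 1.82 at the wox4-1 base, against 1.67, 1.65 and 1.60 in the wox4-1 internode. It was 1.80, 1.91 and 1.83 at the WT base, against 1.63, 1.79 and 1.59 in the WT internode. In L7a, the position change of AT2G47610 minus that of AT3G62870 was 0.14 (exact permutation adjusted p = 0.0325, and 0.0650 with the replicate block). The L12 pair AT2G37190 and AT3G53430 differed by 0.11 (adjusted p = 0.0325 by the exact permutation), a call lost in 6 of the 12 fits that left out 1 array: without wox4-1 base replicate 1, any wox4-1 internode array, or WT internode replicate 2 or 3.

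For genotype, 3 of the 26 pairs passed, all at an exact permutation p of 0.005 and an adjusted p of 0.0433, and 11 pairs had an unadjusted p under 0.05. Genotype labels were permuted separately at each position, which takes base and internode arrays of the same number as unrelated. If they are paired, these p-values are too small, and no replicate block was applied to the genotype pairs. In L12, the genotype change of AT2G37190 minus that of AT5G60670 was -0.21, and minus that of AT3G53430 it was -0.16. AT2G37190 minus AT5G60670 was 0.58, 0.71 and 0.71 at the wox4-1 base, against 0.86, 0.79 and 0.92 at the WT base. It was 0.61, 0.50 and 0.57 in the wox4-1 internode, against 0.85, 0.79 and 0.72 in the WT internode, with no overlap at either position.

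In L18a, AT2G34480 minus AT3G14600 was 1.30, 1.48 and 1.43 at the wox4-1 base, against 1.27, 1.28 and 1.16 at the WT base. It was 1.57, 1.62 and 1.62 in the wox4-1 internode, against 1.37, 1.36 and 1.45 in the WT internode, a difference in genotype change of 0.19. All 3 genotype calls were lost without any 1 of wox4-1 base replicates 1 and 3 and the 3 WT base arrays (exact permutation, adjusted p = 0.0650 to 0.0867), and with cyclic loess none passed. In those fits with an array left out, an exact permutation p of 0.005 gave an adjusted p of 0.0650. The calls thus also hang on how many pairs share the smallest p. Without WT internode replicate 3, 6 pairs passed. A further 7 pairs, in L7, L10a, L13a, L22 and L26, had an exact permutation adjusted p of 0.0910. Among them were AT3G49910 and AT5G67510 of L26, with the largest genotype difference of the 26 pairs (-0.22), and AT3G24830 and AT5G48760 of L13a (-0.11).

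**Figure D4:**
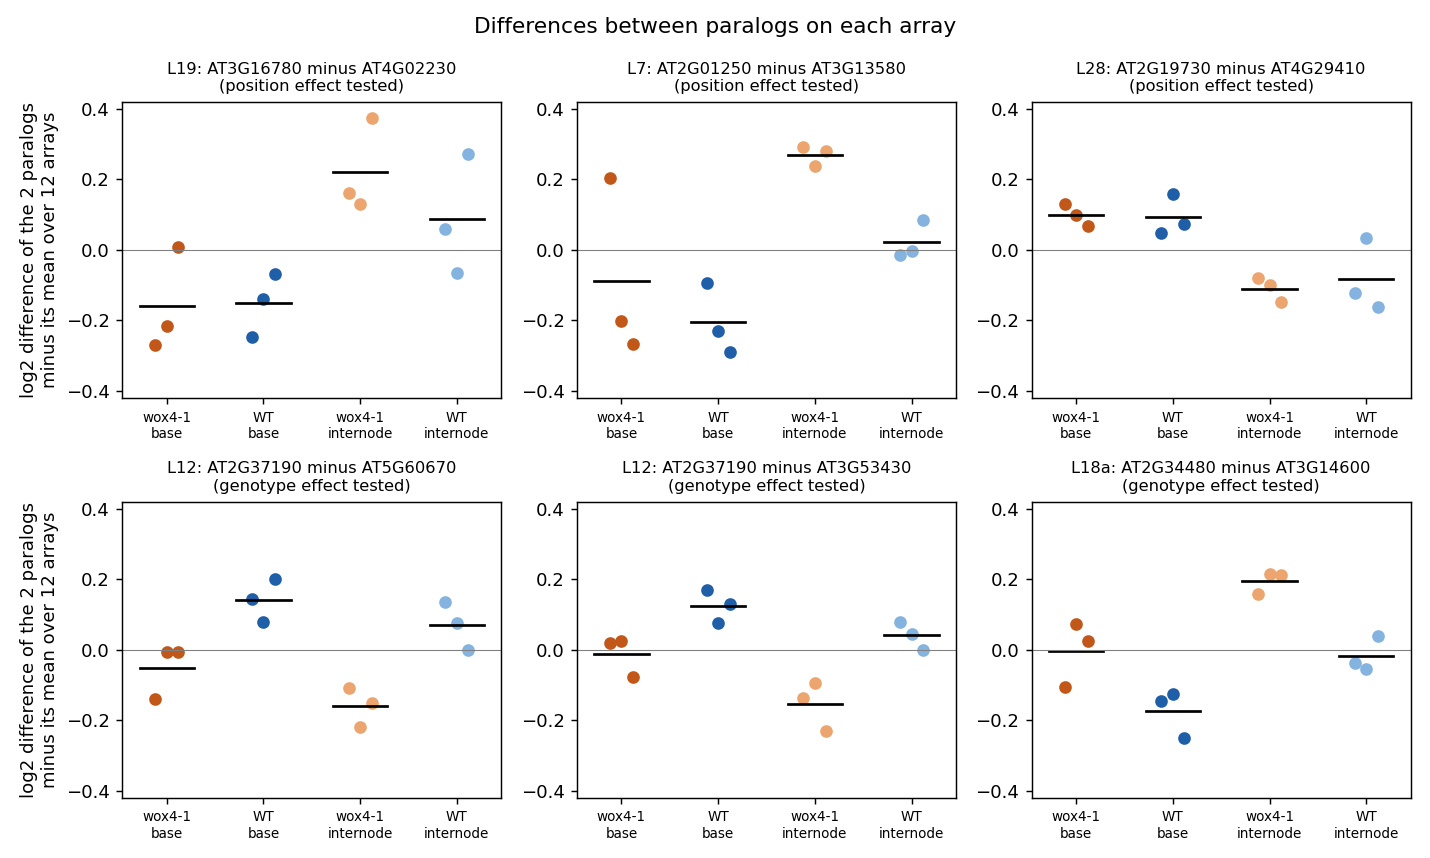
Each point is the log2 difference between 2 paralogs on 1 array, minus its mean over 12 arrays (y axis), in the 4 groups (x axis), with a bar at the group mean, for 3 pairs tested for position (top) and the 3 pairs that passed for genotype (bottom). In L19 and L7 the base groups lie below the internode groups on average, with wox4-1 base replicate 1 apart in L7, and in both L12 pairs the wox4-1 groups lie below the WT groups at each position.

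The remaining ribosomal protein genes, taken from lists chosen for this work, are given for comparison, without a test of the difference. The background for position was 11.4% of all probe sets higher and 13% lower in wox4-1, and 9.6% higher and 10.1% lower in WT. Of 41 further 60S genes, 15 rose and 1 fell at the base in wox4-1, and 16 rose and 1 fell in WT, with median changes of 0.23 and 0.28. Of 48 genes of the small (40S) subunit, 21 rose in wox4-1 and 26 in WT, with medians of 0.23 and 0.29. The gene that fell was AT3G28500, of an acidic stalk protein, by 0.81 in wox4-1 and 0.72 in WT (limma adjusted p = 0.00071 and 0.00202), and it was also lower in wox4-1 at the base (-0.70, adjusted p = 0.0117). Among the genes that rose was AT5G02450 (L36), by 0.50 in wox4-1 and 0.46 in WT. AT2G32220 (L27) rose by 0.58 in wox4-1 and by 0.46 averaged over genotypes. AT4G39200 (S25) rose by 0.50 in WT and by 0.48 averaged over genotypes. The 40S gene AT2G41840 was lower in wox4-1 at the base (-0.26, limma adjusted p = 0.0446), and neither list had a call in the internode.

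The nuclear genes of plastid ribosomal proteins, 9 of which were measured, gave no call at any position or genotype. Their medians were -0.05 in wox4-1 and -0.18 in WT for base over internode, and 0.26 at the base and 0.10 in the internode for wox4-1 over WT. All 9 had a positive genotype change at both positions, as did 12303 of all 22746 probe sets at the base and 11736 in the internode.

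Of 28 genes for assembling ribosomes, 12 were measured. None rose and 2 fell at the base in wox4-1 (16.7%, on a background of 13% of all probe sets lower). The 2 were AT1G63810 (-0.53, limma adjusted p = 0.00213) and AT2G40430 (-0.25, limma adjusted p = 0.0426). In WT these had -0.31 and 0.02 and were not called. In WT, 4 rose and none fell (33.3%, on a background of 9.6% higher). The direct test of the difference of position changes called none of these 12 genes (median -0.16). The counts therefore do not show that the position change of this list differed between the genotypes. In the genotype comparison 4 fell at the base (33.3%, on a background of 2.51% lower) and none in the internode, with medians of -0.28 and -0.11. The largest fall at the base was that of AT1G50920 (-0.44, limma adjusted p = 0.0445), which was not called for position in either genotype. Both AT5G14520, encoding a pescadillo homolog needed for large subunit maturation, and AT1G52930, encoding a BRX1 homolog, rose at the WT base (0.31 and 0.32) and fell in the wox4-1 base against the WT base by 0.37 and 0.34 (limma adjusted p = 0.0179 and 0.0370). Of 3 measured genes of translation factors, only the elongation factor gene AT5G19510 was called for position, with a rise of 0.36 in wox4-1 and 0.32 in WT. AT5G12110 had 0.16 in wox4-1 and -0.09 in WT, and AT1G54270 had 0.05 in both.

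Markers of other cells moved beside these changes. Of 4 measured genes of dividing cells, AUR2 (AT2G25880) and AUR1 (AT4G32830) rose at the base. The change of AUR2 was 0.79 in wox4-1 and 0.48 in WT, and that of AUR1 was 0.39 in wox4-1 and 0.38 in WT. The other 2 did not pass: AT4G02060 had differences of -0.30 in wox4-1 and 0.05 in WT, and AT2G45490 of 0.14 in wox4-1 and 0.04 in WT. AUR2 also fell in wox4-1 on average over positions, by 0.53 (limma adjusted p = 0.00617). All 4 measured genes of leaf photosynthesis fell at the base, with medians of -0.80 in wox4-1 and -0.88 in WT. Their means were higher in wox4-1 than in WT at both positions, and 1 of the 4, SBPASE (AT3G55800), passed for genotype on average (0.29, limma adjusted p = 0.0466). The part of these cells in the ribosomal protein results was not tested.

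**Figure D5:**
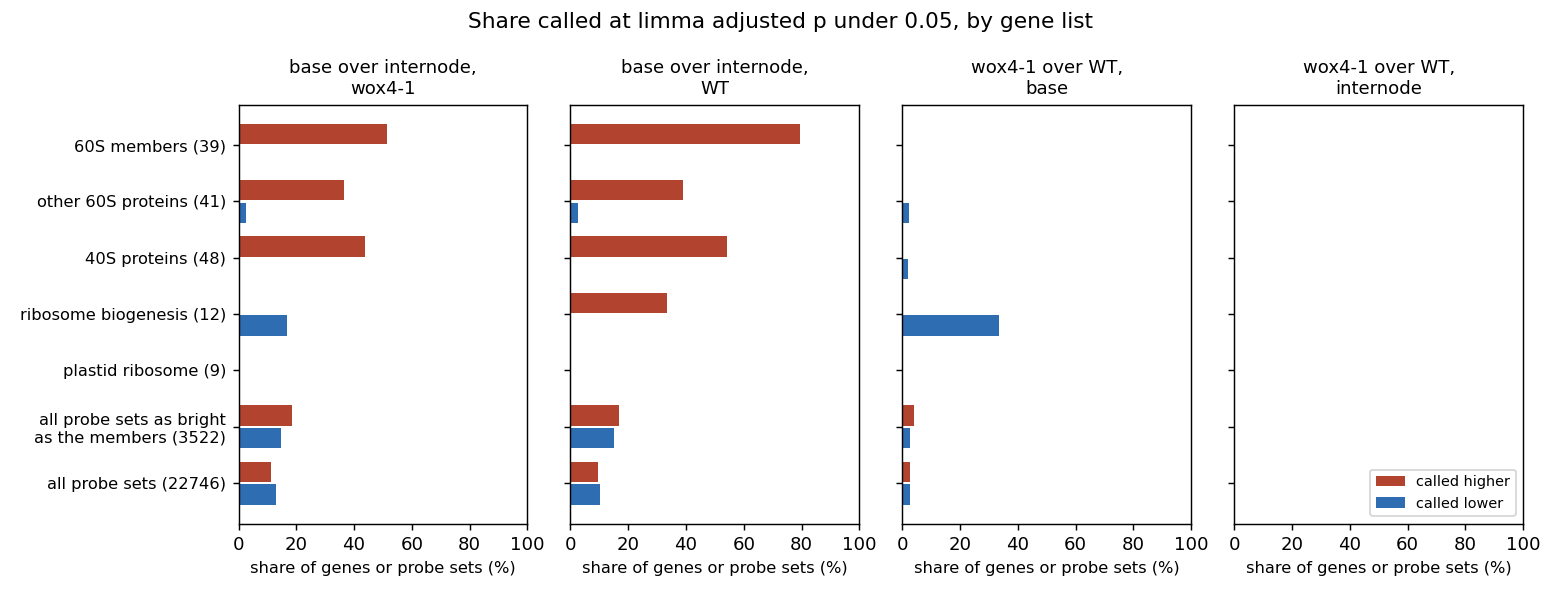
Share of genes called at a limma adjusted p under 0.05 (x axis, percent), higher and lower, in each gene list and among all probe sets (y axis, number measured in brackets), in 4 panels for base over internode in wox4-1 and WT and wox4-1 over WT at the base and in the internode. The 3 lists of cytosolic ribosomal proteins stand above all probe sets for higher calls in the position panels, and the internode panel is near 0 for every list.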

How the data were processed

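The deposited table holds log2 values per probe set, which the authors made with RMA per the submitters' processing notes (no version given in the sources used here). RMA makes the distributions of the arrays alike, so every change is relative to the bulk of probe sets. Of 22810 probe sets, 64 controls were set aside and 22746 tested. The supplied annotation names 1 gene for 13513 probe sets, several for 503 and none for 8730. Names came only from probe sets with 1 gene.

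One mean per group was fitted to the 12 arrays with limma 3.58.1 (lmFit, eBayes) in R 4.3.3, with Benjamini-Hochberg adjustment over all 22746 and a call at an adjusted p under 0.05. Paralogs were compared by exact permutation over 400 arrangements, adjusted over 26 pairs. The limma steps were tested on simulated data in which few probe sets were changed. In comparisons of 2 groups, 0 to 1% of log2 shifts of 0.25 and 37 to 51% of shifts of 0.5 were recovered. For the averages these shares were 13 to 14% and 91 to 95%, and for the difference of position changes 0% at both sizes. The position comparisons of the data called many more probe sets than were changed here, which loosens the Benjamini-Hochberg threshold. The shares may therefore be too low for position. A lack of calls therefore does not show a lack of small changes. With arrays, precision depends on the 3 replicates of each group.

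Families and gene lists were assigned from general knowledge, and the members and lists were chosen with earlier results of these data known. Per-array values are given by a rule: the 4 largest called changes in each direction per contrast (or the 2 smallest p), the paralogs that differ most, and members with known mutants. The labels give groups the same replicate numbers. Same-numbered WT arrays deviated together between base and internode (r from 0.294 to 0.592). Unlike-numbered WT arrays 1 and 3 also had positive r (0.112 and 0.166), and deviations within a group are tied to each other. The WT numbers were therefore treated as a possible pairing in an alternative, by the data and not by a stated design. Same-numbered arrays of wox4-1 (-0.05 to 0.24) and those between genotypes (-0.057 to 0.115) did not deviate together in this way. The WT pairing was tried for position comparisons only. The main tests of genotype over both positions took base and internode arrays as independent, so their p-values may be too small. Alternatives covered scaling, filters, eBayes options, a replicate block and left-out arrays.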

Additional observations from a re-analysis of the deposited data

How the results depend on the processing

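With each array centred on its median, the median change of the members was 0.32 for position in wox4-1, 0.33 for average position, -0.078 for genotype at the base and -0.0043 for the difference of position changes, and 3 genes were called lower in wox4-1 on average. That centring moved the calls over all probe sets in the wox4-1 position comparison to 4742 higher and 2280 lower, against 2602 higher and 2962 lower as deposited, and at the base for genotype to 998 higher and 380 lower, against 574 and 572. For average position it gave 5768 higher and 3181 lower, against 3887 and 3893, and for average genotype 934 and 475, against 657 and 635. With cyclic loess, the wox4-1 position median was 0.17, 3 genes were called lower in wox4-1 at the base, and 0 paralog pairs passed for genotype. At the base, eBayes with a trend called 3 lower, with trend and robust options 6, and without dim probe sets 2. Over all probe sets these fits called 607 higher and 581 lower, 663 and 636, and 481 and 562. Cyclic loess called 591 higher and 502 lower there. Fitting only the groups compared gave 12 wox4-1 position calls. Without both WT replicate 2 arrays, 10 genes were called for WT position and 0 for average genotype. Without these and wox4-1 internode replicate 2, 10 were called for position in wox4-1, 9 in WT and 0 for average genotype. Leaving out 1 array gave 12 to 19 position calls in wox4-1, 15 to 33 in WT, 0 to 3 genotype calls at the base, 1 to 10 on average, a median difference of position changes of -0.12 to -0.023, and 0 to 6 paralog pairs for genotype. The causes were not tested. The replicate block within WT, an alternative chosen after seeing the data, gave 25 WT position calls, against 31. The block across groups gave 26 in WT and 15 in wox4-1, against 20, and moved no count of calls by over 1.5 times; for paralogs, 8 position pairs passed with the block within WT, against 8, of which 7 were shared. Of the single-gene calls, none reversed. A mean over all probe sets of a gene gave no separate value, since each member has 1, and fitting only the groups compared is the same fit for contrasts that use all 12 arrays.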

Other observations

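On wox4-1 base replicate 1, 32 of the 39 genes lay above their group mean and 7 below it. The 7 included both L4 genes, AT3G09630 (-0.32) and AT5G02870 (-0.20), and AT3G13580 of L7 (-0.21), while AT4G27090 (L14), AT1G27400 (L17), AT2G34480 (L18a) and AT3G16780 (L19) lay between -0.10 and -0.03. These genes were singled out after their values were seen.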
